A study of Mus musculus with 6 samples.

Results

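The genes described here are the PDGF ligands Pdgfa, Pdgfb, Pdgfc and Pdgfd, their receptors Pdgfra and Pdgfrb, the RAS genes Nras and Hras, and the RAS brake Nf1. They were taken by symbol from a table of 55453 gene symbols, and all 9 were found and passed the filter on low counts. RNA was poly(A)-selected and sequenced from SB28, a mouse glioma line on a C57BL/6 background, in 3 libraries labelled PP2AcKO (genotype PP2A KO) and 3 labelled PP2AcWT (genotype Wild Type). PP2Ac is the catalytic subunit of protein phosphatase 2A, which removes phosphate from serine and threonine in many proteins of the RAS and PDGF pathways. Total counts were 38735864 to 49344079 per library. The labels give no treatment, no age and no way in which the knockout was made, and nothing says that the libraries of a group came from separate cultures, so the p values can speak of differences among these libraries alone, whose spread could be technical. The series design speaks instead of SB28 tumours in hosts that lose PP2Ac in LysM-expressing myeloid cells, and this was not settled by the labels.

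Platelet-derived growth factors are secreted dimers that bind paired receptor tyrosine kinases on the cell surface. The receptors recruit adaptors that load RAS with GTP, and RAS then switches on the RAF, MEK and ERK kinases and the PI3K and AKT kinases, until a GTPase activating protein such as neurofibromin returns RAS to its GDP-bound state. In glial precursors PDGF drives division, and in gliomas both the receptor arm and the loss of neurofibromin are known oncogenic events. SB28 is known as a line grown from mouse gliomas that were induced with Sleeping Beauty transposons carrying an activated NRAS, a PDGF and a short hairpin RNA against p53. Reads of an introduced gene that align to its mouse counterpart are counted under the mouse symbol, and a count per gene cannot tell them from reads of the native gene. Whether the introduced NRAS and PDGF are mouse or human sequence is not given in the sources used here, so the counts of Nras and of the PDGF ligand genes may or may not hold reads of them.

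The labelled tissue and the knockout were checked first. Ppp2ca, the gene of the targeted subunit, had 217, 187 and 193 CPM (counts scaled to a common library size with TMM factors) in the knockout libraries against 274, 244 and 247 CPM in wild type, 1.28-fold less (log2 fold change -0.36, SE 0.08, with 0.00377 as adjusted p in edgeR's quasi-likelihood test). Its message was thus still counted in every knockout library, and a count per gene does not show which exons those reads cover. Genes on the opposite strand overlap 41.3% of its exon bases. Ppp2cb, the gene of the other catalytic isoform, rose to 125 ± 2.05 CPM in knockout against 85.9 ± 2.28 CPM in wild type (SD, n = 3, edgeR adjusted p = 6.34e-05). Markers of oligodendrocyte precursors, in which Pdgfra is a defining gene in the brain, were nearly missing: Olig1, Olig2, Sox10, Gpr17 and Ptprz1 had 0 counts in all 6 libraries, and the 7 markers summed to 0.122 to 0.179 CPM in knockout and 7.72 to 10.2 CPM in wild type, almost all of it Cspg4 in wild type. Gfap, the classical astrocyte marker, averaged 0.0809 ± 0.0187 CPM in knockout and 0.0393 ± 0.0314 CPM in wild type (SD, n = 3). Of the 10 myeloid markers 9 stayed under 1 CPM in every library, and Adgre1 and Tyrobp had 0 counts. The list summed to 5.12 to 5.57 CPM in knockout and 3.35 to 3.73 CPM in wild type. Most of that sum was Cd68, at 4.43 ± 0.304 CPM in knockout and 3.01 ± 0.28 CPM in wild type. Among the rare markers, Lyz2 and Fcer1g were higher and Ptprc lower in every knockout library. Pericyte and mural markers, which matter here because pericytes are the usual source of Pdgfrb in tissue, summed to 3.07 to 3.59 CPM in knockout and 18.5 to 20.2 CPM in wild type, with Abcc9, Higd1b and Vtn at 0 counts and Cspg4, shared with the precursor list, as the top gene. Cspg4, Mcam, Notch3 and Rgs5 fell, whereas Anpep had 2.27 ± 0.0968 CPM in knockout and 1.79 ± 0.272 CPM in wild type, higher in every knockout library without passing the threshold (edgeR adjusted p = 0.0727). T cell and NK cell markers summed to at most 0.128 CPM in any library, and Cd3e, Cd8a, Ncr1 and Nkg7 had 0 counts. Endothelial markers summed to 424 to 462 CPM in knockout and 400 to 431 CPM in wild type, nearly all of it Cdh5, with Cldn5 at 0 counts. Below Cdh5, Kdr rose to 7.78 ± 0.402 CPM in knockout against 1.65 ± 0.331 CPM in wild type and Vwf to 5.69 ± 0.382 CPM against 0.650 ± 0.112 CPM, whereas Tek fell to 0.295 ± 0.0360 CPM against 1.40 ± 0.266 CPM. Fibroblast markers, a list that also holds Pdgfra, summed to 1206 to 1762 CPM in knockout and 2282 to 3162 CPM in wild type, a sum carried by Col1a1 and Col1a2, and Lum had 0 or 1 count per library. Its members went both ways: Col1a2 fell (563, 666 and 633 counts in knockout against 37055, 41411 and 35746 counts in wild type), whereas Dcn rose to 32.7 ± 4.55 CPM in knockout against 1.28 ± 0.351 CPM in wild type and Pi16 to 2.83 ± 0.439 CPM against 0.285 ± 0.123 CPM. Astrocyte markers summed to 376 to 410 CPM in knockout and 546 to 587 CPM in wild type, nearly all of it Gja1, with Aqp4 at 0 counts. Aldh1l1 and S100b fell as Gja1 did, whereas Slc1a2 and Slc1a3 rose, the last to 1.20 ± 0.185 CPM in knockout against 0.254 ± 0.0490 CPM in wild type. The part of these differences in the results below was not tested, and in bulk RNA fewer cells of a type and less RNA per cell cannot be told apart.

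In each group library 1 differed most from the rest. For all 9 genes, library 1 was an extreme of its group in the same direction in knockout and in wild type, lowest for Pdgfa, Pdgfb, Pdgfrb and Hras and highest for Pdgfc, Pdgfd, Pdgfra, Nras and Nf1. Over all genes tested 61.7% did the same. Results are therefore also given with the library number as a block, or without both libraries numbered 1, where that changes a call.

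In the knockout 4 of the 9 genes rose, 3 fell and 2 stayed short of the threshold. Both receptors, Pdgfb and Nras were the ones that rose, and Pdgfc, Pdgfd and Hras were the ones that fell. Background was high: 64% of the 14877 genes tested passed an adjusted p of 0.05. As shares of all genes tested, 31.9% were called higher and 32.1% lower in knockout. A count of 7 among 9 is thus near that of any set of expressed genes. The median size of the log2 fold change, without its sign, was 0.44 for the 9 genes and 0.47 for all genes tested. Knockout and wild-type ranges were separate in 7 of the 9 genes, against 68.3% of all genes tested. Against a fold change of 1.5 (edgeR's glmTreat), which 26.7% of all genes passed, 0 of the 9 genes passed after adjustment, and 1 had an unadjusted p under 0.05. DESeq2 and limma voom, each tested against the same fold, also called 0, with 0 at an unadjusted p under 0.05. With the library number as a block the fold test called both Pdgfrb (adjusted p = 0.00973) and Hras (adjusted p = 0.0021), and without both libraries numbered 1 it called the same pair (0.0332 and 0.0244).

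**Figure D1:**
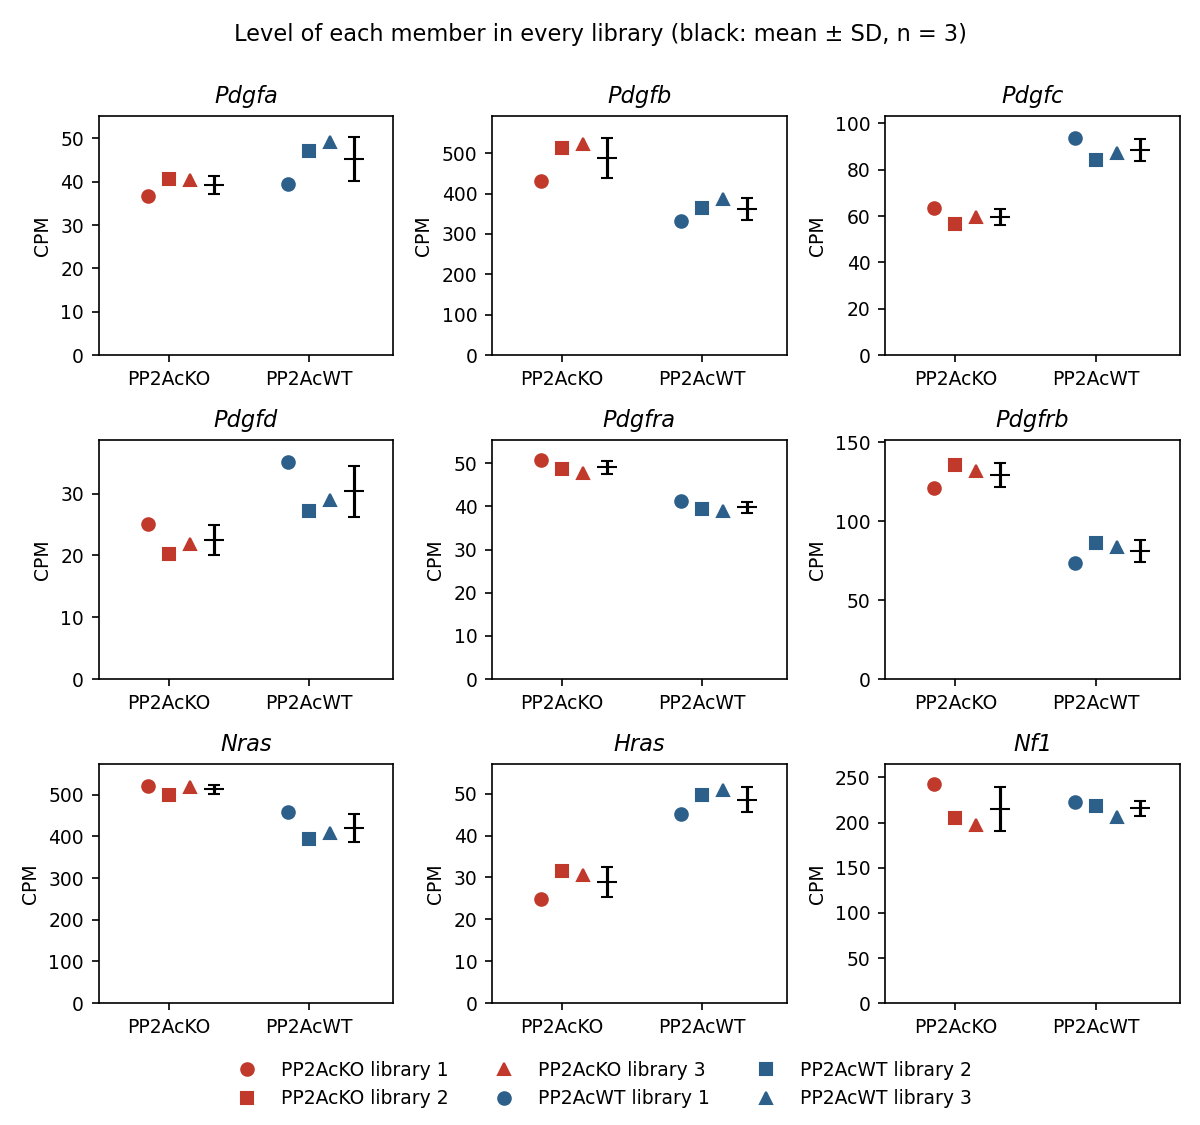
Level in CPM (linear axis from 0) of each of the 9 genes in the 3 PP2AcKO (red) and 3 PP2AcWT (blue) libraries, with marker shape for the library number and the mean ± SD in black. The groups are apart for 7 genes and overlap for Pdgfa and Nf1, and library 1 (circles) is at the edge of its group in every panel.

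Among the ligands, Pdgfb was by far the most abundant and was higher in the knockout. Pdgfb encodes PDGF-B, the chain whose homodimer binds both receptors. It had 432, 512 and 522 CPM in knockout 1, 2 and 3, against 332, 365 and 386 CPM in wild type 1, 2 and 3. Every knockout library lay above every wild-type library, although knockout 1 was closer to wild type 3 than to the other knockout libraries. The means were 488 ± 49.5 CPM in knockout and 361 ± 27.3 CPM in wild type (SD, n = 3), a 1.35-fold rise (log2 fold change 0.44, SE 0.09, edgeR adjusted p = 0.00268). Its counts were large, 19256 to 20971 per knockout library and 15333 to 16947 per wild-type library, so the spread between libraries and not the depth set its error. The gene lies on chromosome 15, 79995874 to 80014977, minus strand (GRCm38), and no annotated exon of another gene overlaps its exons.

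Pdgfa encodes PDGF-A, which binds the alpha receptor. It had 36.8, 40.6 and 40.3 CPM in knockout, against 39.5, 47.2 and 49.1 CPM in wild type. The groups overlapped because wild type 1 lay within the knockout range. The log2 fold change was -0.21 (95% interval -0.42 to 0.01, edgeR adjusted p = 0.0893) and did not pass. With the library number as a block it was -0.20 with an adjusted p of 0.00115 (edgeR), without both libraries numbered 1 the adjusted p was 9.02e-05, and without wild type 1 alone it was 0.0123. Scaling also decided the call, with an adjusted p of 0.0337 under upper-quartile factors and 0.0244 with library size only. Exons of the antisense RNA 6330403L08Rik cover 26.1% of the Pdgfa exon bases on the opposite strand (chromosome 5, 138976014 to 138997370, minus strand for Pdgfa), and since the strand setting of the counting is not given in the sources used here, reads of this pair cannot be told apart. The antisense RNA had a mean of 15.4 ± 0.638 CPM in knockout and 13.3 ± 1.27 CPM in wild type.

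Pdgfc and Pdgfd, whose products carry a CUB domain that must be cut off before they bind a receptor, were both lower in the knockout. Pdgfc, the ligand of the alpha receptor in this pair, had 63.3, 56.5 and 59.4 CPM in knockout, against 93.7, 84.3 and 87.4 CPM in wild type. All knockout libraries lay well below all wild-type ones, and the gene fell 1.48-fold (log2 fold change -0.57, SE 0.07, edgeR adjusted p = 0.00016). Pdgfd, a ligand of the beta receptor, had 25.1, 20.3 and 21.9 CPM in knockout, against 35.0, 27.1 and 29.0 CPM in wild type. Here the groups were separate by a narrow margin, with knockout 1 just under wild type 2. The drop was 1.36-fold (log2 fold change -0.44, SE 0.12, edgeR adjusted p = 0.0101). Pdgfc lies on chromosome 3, 81036416 to 81214040, plus strand, and Pdgfd on chromosome 9, 6168584 to 6378850, plus strand.

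The receptor genes rose, the beta receptor more than the alpha receptor. Pdgfrb encodes the beta receptor, which binds PDGF-B and PDGF-D and is typical of pericytes and mesenchymal cells. It had 121, 136 and 132 CPM in knockout, against 73.4, 86.4 and 83.7 CPM in wild type. The knockout libraries formed a group far above the wild-type ones. Of the pericyte and mural markers given above, 4 were lower in knockout, Anpep was higher in every knockout library and the others were at 0 counts or, for Kcnj8, 1 count in 1 library; their part in the Pdgfrb result was not tested. The rise was 1.59-fold (log2 fold change 0.67, SE 0.08, edgeR adjusted p = 0.000108) and missed the threshold when tested against a fold of 1.5 (adjusted p = 0.171), except under the block, without both libraries numbered 1 and without knockout 1 (adjusted p = 0.0487). Pdgfrb lies on chromosome 18, 61045150 to 61085061, plus strand.

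Pdgfra encodes the alpha receptor, the one amplified in many human gliomas, which binds PDGF-A, PDGF-B and PDGF-C. It had 50.7, 48.8 and 47.7 CPM in knockout, against 41.2, 39.3 and 38.9 CPM in wild type. The libraries of each group lay close together and the groups were apart. The means were 49.0 ± 1.52 CPM in knockout and 39.8 ± 1.22 CPM in wild type (SD, n = 3), a 1.23-fold rise (log2 fold change 0.30, SE 0.07, edgeR adjusted p = 0.00376). On the level per length, log2 of Pdgfra over Pdgfrb was -2.13, -2.35 and -2.34 in knockout, against -1.71, -2.01 and -1.98 in wild type. The beta receptor was thus the more abundant receptor message in every library, and its lead was larger in the knockout libraries (difference in log2 ratio -0.37, exact two-sided permutation p = 0.1, the smallest that 3 against 3 libraries allow). Pdgfra lies on chromosome 5, 75152292 to 75198215, plus strand.

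**Figure D2:**
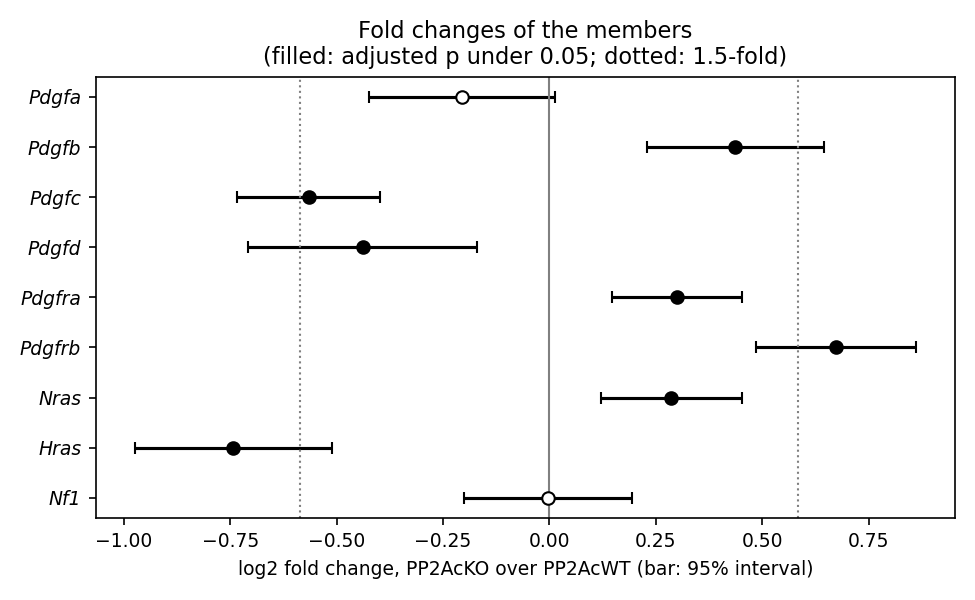
Log2 fold change, PP2AcKO over PP2AcWT, of each gene with its 95% interval, filled where the edgeR adjusted p was under 0.05, with dotted lines at a 1.5-fold change. Pdgfrb (0.67) and Hras (-0.74) lie beyond the dotted lines with intervals that cross them, and Nf1 lies near 0 (-0.0040).

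Nras rose slightly. Its product is a membrane-bound GTPase that activates RAF kinases when GTP is bound. It had 520.0, 499 and 519 CPM in knockout, against 459, 395 and 407 CPM in wild type. Wild type 1 stood above the other wild-type libraries but still below all knockout libraries. The means were 513 ± 11.6 CPM in knockout and 420.3 ± 34.1 CPM in wild type (SD, n = 3), a 1.22-fold rise (log2 fold change 0.29, SE 0.07, edgeR adjusted p = 0.00761). Trp53, the gene targeted by the hairpin of the line, did not pass the threshold, with 26.6 ± 1.36 CPM in knockout and 25.6 ± 1.2 CPM in wild type (log2 fold change 0.06, edgeR adjusted p = 0.54).

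Hras, which encodes a GTPase nearly identical to that of Nras outside its C-terminal tail, moved the other way and had the largest change of the 9. It had 24.9, 31.5 and 30.7 CPM in knockout, against 45.2, 49.6 and 50.8 CPM in wild type. The groups were widely separate, with the lowest value of each group in library 1. The means were 29.0 ± 3.59 CPM in knockout and 48.5 ± 2.99 CPM in wild type (SD, n = 3), a 1.67-fold drop (log2 fold change -0.74, SE 0.10, edgeR adjusted p = 0.000216). Of all genes tested 67.9% had a smaller change in size. Against a fold of 1.5 the adjusted p was 0.0822 (edgeR), and it was under 0.05 with upper-quartile factors (0.031), with library size only (0.0223) and without wild type 1 (0.0484), besides the block and the fit without both libraries numbered 1.

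The start of Hras is shown because it lies close to another gene, and the bases between the 2 genes are few. Hras begins 151 bases from Lrrc56 on the opposite strand, and the pair point away from each other. The bases between them are written 5′ to 3′ on the strand of Hras, from RefSeq (GRCm38.p6), with GC boxes (GGGCGG on either strand) and CCAAT boxes (CCAAT on either strand) in capitals.
Hras, chr7:141194006-141194156, minus strand: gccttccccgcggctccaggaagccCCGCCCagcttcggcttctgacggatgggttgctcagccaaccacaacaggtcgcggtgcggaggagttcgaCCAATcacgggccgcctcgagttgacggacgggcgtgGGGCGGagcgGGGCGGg
This stretch holds 3 GC boxes and 1 CCAAT box, at 70.9% G and C. Of 32851 RefSeq windows of 250 bases upstream of a start, 32.7% hold at least 1 GC box and 33.8% at least 1 CCAAT box. A match of either kind is thus common. How often 3 GC boxes and a CCAAT box fall together was not counted, and the matches describe the letters only. Windows were found for 7 of the 9 genes, Pdgfb and Pdgfrb being the others. In those windows GC boxes were found for Hras, Nras and Pdgfa and not for Pdgfc, Pdgfd, Pdgfra or Nf1, and a CCAAT box for Hras alone. Neither TGANTCA (the AP-1 motif, in 6.75% of all windows) nor an NF-kB motif of 10 letters (in 1.41%), searched on both strands, was found for any of the 7.

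Lrrc56, the gene across from Hras, was low, at 1.43, 2.37 and 1.99 CPM in knockout against 2.35, 2.74 and 2.54 CPM in wild type. Its groups overlapped and its log2 fold change of -0.40 did not pass (SE 0.19, edgeR adjusted p = 0.092), whereas with the library number as a block it did (adjusted p = 0.0194), as it did with library size only (0.0492) and without knockout 2 (0.0355). The nearest protein-coding genes of the ligands moved in both directions. They lie much farther off than Lrrc56 does from Hras, from 19935 bases for Prkar1b to 718560 bases for Ctso and 795551 bases for Casp12. Glrb, a glycine receptor subunit gene on the left of Pdgfc, fell as Pdgfc did (-0.97 on the log2 scale, edgeR adjusted p = 0.000212), and Ctso, on its right, had a log2 fold change of 1.06. Beside Pdgfb, which rose, Cbx7, a Polycomb protein gene, had a log2 fold change of -1.62 and Rpl3, on the other side, -0.20. Beside Pdgfd, which fell, Casp12 had a log2 fold change of 0.54. The calls of Rpl3 and Casp12 were not stable: Rpl3 lost its call without any 1 of the 6 libraries (edgeR adjusted p 0.0545 to 0.154), and Casp12 without knockout 1 (0.0624), wild type 2 (0.1) or wild type 3 (0.0865) and with library size only (0.0536). Prkar1b, beside Pdgfa, had 1.89 ± 0.201 CPM in knockout and 19.3 ± 2.19 CPM in wild type. Kit, the receptor tyrosine kinase gene next to Pdgfra, lies 376700 bases from it, and Csf1r, the related gene next to Pdgfrb, 15536 bases. Kit and Csf1r were too rare to test, at means of 0 and 0.0795 CPM in knockout against 0.00653 and 0.164 CPM in wild type.

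Nf1, which encodes the GTPase activating protein neurofibromin, had the smallest difference of the 9. It had 243, 205 and 198 CPM in knockout, against 222, 218 and 206 CPM in wild type. The groups overlapped fully, with wild type within the range of knockout. The means were 215 ± 24.2 CPM in knockout and 216 ± 8.45 CPM in wild type (SD, n = 3), and the log2 fold change was -0.0040 (95% interval -0.20 to 0.19, edgeR adjusted p = 0.971), so changes inside that interval could not be seen with these libraries. With the block the adjusted p was 0.865. Nf1 lies on chromosome 11, 79339693 to 79581612, plus strand, and 4 protein-coding genes lie inside its span on the other strand. Omg and Evi2b had 0 counts in all libraries, and Evi2a, the only nested gene that was tested, had 1.90 ± 0.138 CPM in knockout and 0.0970 ± 0.109 CPM in wild type (log2 fold change 4.17, SE 0.47, edgeR adjusted p = 6.24e-05). Its wild-type counts were 11, 0 and 3, so the size of that fold depends on single wild-type libraries. The log2 fold change was 5.62 without wild type 1, 3.61 without wild type 2 and 4.02 without wild type 3. It was 5.57 without both libraries numbered 1 and 4.94 by limma voom. No annotated exon of another gene overlaps the Nf1 exons.

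Per kilobase of annotated exon, Pdgfb and Nras stood far above the other 7 genes in both groups. Pdgfb averaged 117 ± 11.9 CPM per kb in knockout and 86.7 ± 6.56 CPM per kb in wild type, and Nras averaged 96.2 ± 2.17 CPM per kb in knockout and 78.8 ± 6.39 CPM per kb in wild type (SD, n = 3). Their ranges were apart in knockout and overlapped in wild type. Next in knockout came Pdgfrb at 23.6 ± 1.39 CPM per kb, apart from its neighbours in the order. Below it the range of Nf1 (13.6) overlapped that of Pdgfa (12.6), and the range of Pdgfa that of Pdgfc (11.7). The same held for Hras (7.77) and Pdgfd (7.11), and neighbours in these pairs could not be ranked. In wild type Pdgfc came next after Nras, at 17.4 ± 0.938 CPM per kb. Pdgfrb (14.8), Pdgfa (14.5) and Nf1 (13.6) each overlapped the next gene in the order, down to Hras (13.0), and Hras was apart from Pdgfd. By this length Pdgfra was lowest in both groups, at 4.89 ± 0.152 CPM per kb in knockout and 3.97 ± 0.122 CPM per kb in wild type. The length used is that of all annotated exons joined, 10024 bases for Pdgfra, whose longest transcript has 6834 bases. No ranking was made with another length, and places of genes close in level, and overlaps between them, can depend on that choice. An introduced gene without the native untranslated regions is shorter than the annotated gene, so the level per length of Pdgfb or Nras would be understated to the extent that its reads come from one.

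**Figure D3:**
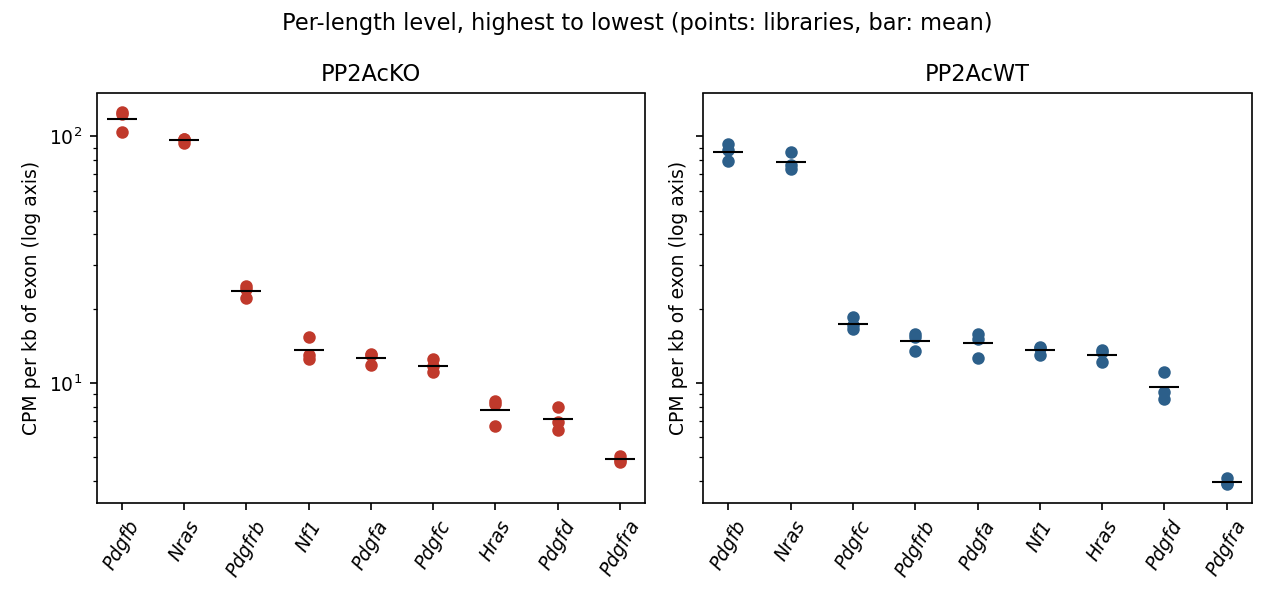
CPM per kb of annotated exon (log axis) of the 9 genes, ordered from highest to lowest within PP2AcKO (left) and PP2AcWT (right), with points for the 3 libraries and bars for the mean. Pdgfb and Nras lie at 74.0 or more in every library and the other genes at 24.8 or less, and Pdgfrb ranks above Pdgfc in knockout only.

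The makeup of the ligand messages within each library, which does not depend on scaling between libraries, was weighted more toward Pdgfb in the knockout libraries. Pdgfb made up 76.3%, 80.1% and 79.9% of the summed per-length level of the 4 ligand genes in knockout, against 65.4%, 68.5% and 68.8% in wild type. The share of Pdgfc was 9.16%, 7.24% and 7.44% in knockout, against 15.1%, 12.9% and 12.7% in wild type. Pdgfa took 8.47 ± 0.215% in knockout and 11.3 ± 0.796% in wild type, and Pdgfd took 4.82 ± 0.901% in knockout and 7.55 ± 1.35% in wild type (SD, n = 3). Knockout and wild type did not overlap for any of the 4 shares. The 4 shares of a library add up to a fixed whole, so a larger Pdgfb share leaves less for the other ligands. They are therefore not separate results. In CPM the groups overlapped for Pdgfa, which did not pass the threshold. The 4 shares and the receptor ratio formed a family of 5 comparisons, each with an exact two-sided permutation p of 0.1 and an adjusted p of 0.1, the smallest that the design allows, so none could reach 0.05.

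**Figure D4:**
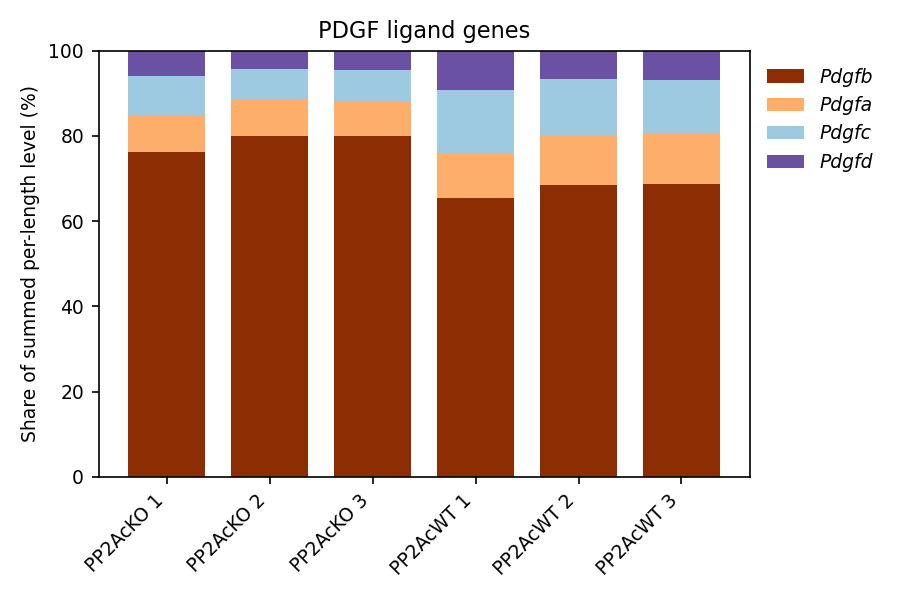
Share in percent of the summed per-length level held by each of the 4 PDGF ligand genes, with a stacked bar for each PP2AcKO library and then each PP2AcWT library. Pdgfb holds 76.3% to 80.1% in knockout and 65.4% to 68.8% in wild type.

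The genes whose pattern over the 6 libraries was most like that of Pdgfb, Nras and Pdgfra were found by Pearson's r of log2 CPM among 9941 genes with a mean of at least 5 CPM. For Pdgfb they were Dock6, Adprh and Tmem11 (r = 0.999, 0.999 and 0.998), and 747 genes had an r above 0.95. For Nras they were Utp4, Eif2b3 and Gtf2e2 (r = 0.996 each), with 496 genes above 0.95. For Pdgfra they were Dctn5, Cep162 and Parp14 (r = 0.9997, 0.9996 and 0.999), with 1827 genes above 0.95. With 6 libraries these values describe a shared step between the groups and a shared place of library 1, and no more.

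Around these 9 genes, 135 other genes of the pathway were followed in 11 lists, of which 122 were tested. In the knockout 50 rose (41%), 35 fell (28.7%) and 37 did not pass, against 31.9% higher and 32.1% lower among all genes tested. The median log2 fold change was 0.13 for the lists and -0.0074 for all genes.

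Next to Nras and Hras, the close RAS relatives had 3 genes higher, 1 lower and 2 that did not pass of 6 tested (median log2 fold change 0.17). Rras, an R-RAS GTPase, rose to 56.0 ± 2.9 CPM in knockout against 34.1 ± 1.87 CPM in wild type, and Rras2 fell to 68.7 ± 1.26 CPM against 93.5 ± 3.41 CPM. With the block, without knockout 1, without both libraries numbered 1, with upper-quartile factors, with library size only and without the filter on low counts, 2 of them were lower. Of the exchange factors, which load RAS with GTP, 2 of 6 rose and 1 fell (median 0.45). Sos2, the partner of the adaptor Grb2, rose 2.15-fold to 104 ± 12.0 CPM in knockout against 48.3 ± 1.77 CPM in wild type (edgeR adjusted p = 8.43e-06), and Rasgrf1, a calcium-dependent exchange factor, was at 0, 3 and 5 counts in knockout against 105, 58 and 64 counts in wild type and was the 1 that fell, so that a filter at a mean of 1 CPM, which removes it, left 0 lower. Of the GTPase activating proteins besides neurofibromin, 4 of 7 rose and 1 fell (median 0.50), with 2 lower under the same settings except the missing filter. Rasa1, which binds the activated PDGF beta receptor, rose 2.57-fold to 611 ± 93.8 CPM in knockout against 238 ± 23.3 CPM in wild type (edgeR adjusted p = 1.11e-05). Of the neurofibromin partners 5 of 8 rose and 1 fell (median 0.32), with 2 lower under those 5 settings too. Spred2, which brings neurofibromin to the membrane, rose to 288 ± 2.5 CPM in knockout against 176 ± 6.22 CPM in wild type. Enzymes and carriers that attach lipid to RAS or move it had 7 of 15 higher and 3 lower (median 0.23), and Lgals1, a galectin that binds HRAS, fell 2.11-fold to 924 ± 56.2 CPM in knockout against 1954 ± 132 CPM in wild type (edgeR adjusted p = 3.68e-06).

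Downstream of RAS, the RAF, MEK and ERK list had 7 of 13 higher, 2 lower and 4 that did not pass (median log2 fold change 0.24). Map2k1, which encodes MEK1, rose to 116 ± 9.73 CPM in knockout against 66.3 ± 4.01 CPM in wild type, and Araf, a RAF kinase, fell to 60.4 ± 4.11 CPM against 86.3 ± 3.67 CPM. The PI3K and AKT list had 3 of 15 higher, 6 lower and 6 that did not pass (median -0.13). Pik3r1, the regulatory subunit that docks on the PDGF receptors, rose to 127 ± 11.5 CPM in knockout against 67.5 ± 2.49 CPM in wild type, and Akt1 fell to 289 ± 31.0 CPM against 455 ± 41.1 CPM.

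At the level of Pdgfra and Pdgfrb, adaptors and signal enzymes had 7 of 20 higher, 8 lower and 5 that did not pass (median log2 fold change 0.052). The count of 8 lower was 3 to 5 without knockout 1, 2 or 3 or wild type 2 or 3. Fyn, a SRC family kinase, rose 3.72-fold to 177 ± 0.956 CPM in knockout against 47.6 ± 0.897 CPM in wild type (edgeR adjusted p = 3.73e-08). Receptor brakes had 6 of 13 higher and 4 lower (median 0.14), and Cblb, a ubiquitin ligase, rose 2.9-fold to 77.6 ± 3.99 CPM in knockout against 26.7 ± 1.38 CPM in wild type (edgeR adjusted p = 3.64e-07). Among proteins that process or bind PDGF 2 of 8 rose and 4 fell (median -0.36). Plat, the plasminogen activator that cleaves PDGF-C, fell 3.96-fold to 45.3 ± 1.93 CPM in knockout against 179 ± 3.79 CPM in wild type (edgeR adjusted p = 4.35e-08), and Cspg4, a proteoglycan that binds PDGF-A, had 0.127 ± 0.0277 CPM in knockout and 8.66 ± 1.35 CPM in wild type. The wider PDGF and VEGF family had 5 of 12 higher and 4 lower (median -0.13), with 2 lower without wild type 3. Vegfa, the main angiogenic factor, rose 3.65-fold to 369 ± 5.5 CPM in knockout against 101 ± 4.3 CPM in wild type (edgeR adjusted p = 5.06e-08), and Vegfd fell to 6.28 ± 0.486 CPM against 16.9 ± 0.238 CPM.

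**Figure D5:**
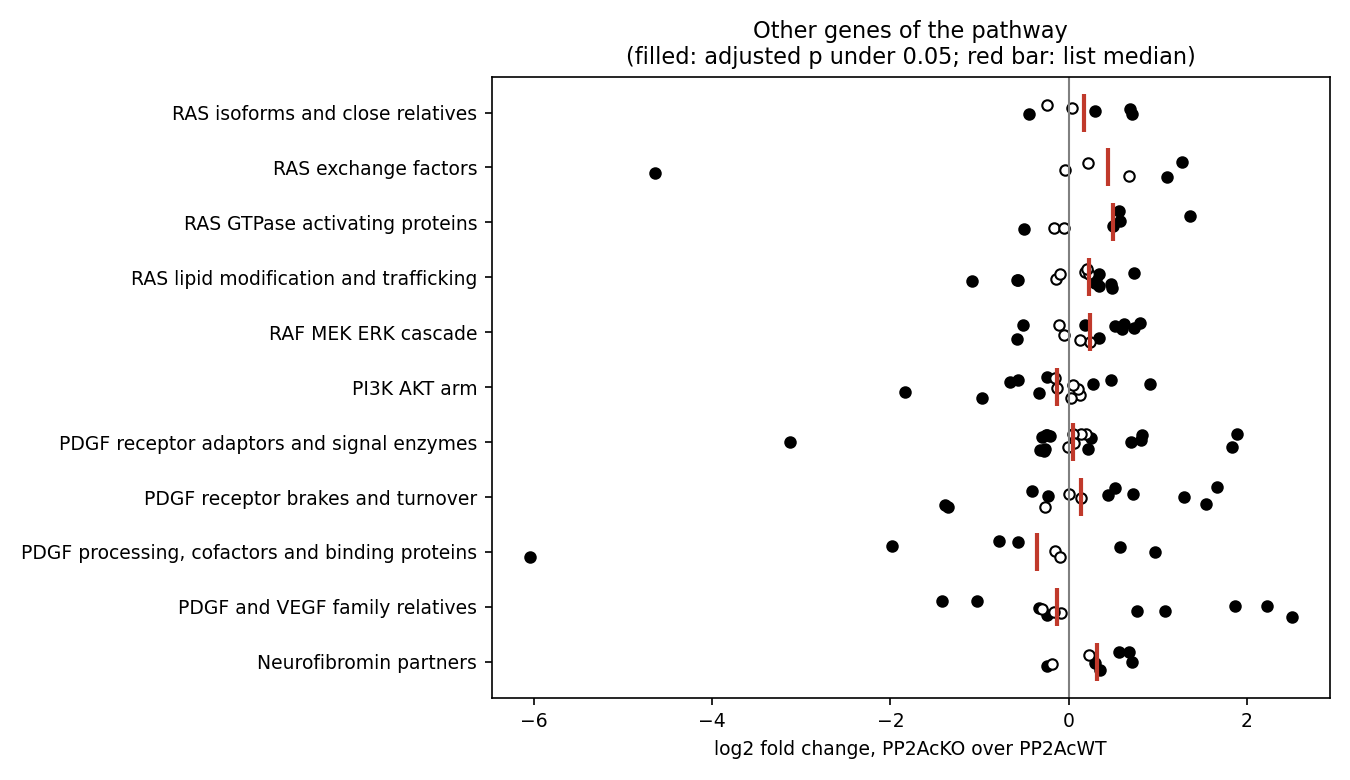
Log2 fold change, PP2AcKO over PP2AcWT, of the 122 tested genes of the 11 pathway lists (a gene in several lists is drawn in each), filled where the edgeR adjusted p was under 0.05, with a red bar at each list's median. Each list holds genes on both sides of 0, and medians run from -0.36 to 0.50.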

How the data were processed

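The authors deposited raw read counts per gene symbol for 6 libraries, 1 column each. Tools listed per the submitters' processing notes, with no role stated, are HTSeq 0.11.2, STAR 2.7.1a, fastp 0.20.0, limma 3.48.3 and edgeR 3.34.0; the builds listed are GRCm38 and mm10. Which annotation was used, and whether counting was by strand, is not given in the sources used here. Columns were matched to samples by title, and groups come from the titles. Counts carry no molecular identifiers.

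Genes were kept by filterByExpr (14877 genes, 99.9% of each library's counts) and scaled by TMM. The factors were split by group, 0.967 to 0.973 in knockout and 1.026 to 1.035 in wild type. With library size only, the median log2 fold change of all genes tested was -0.092 in place of -0.0074. Tests were run in edgeR 4.0.16 (R 4.3.3) by glmQLFit and glmQLFTest. The p-values were adjusted by Benjamini-Hochberg over all genes tested and called under 0.05. The biological coefficient of variation, common to all genes, was 0.0957. The same fit was tested against a fold of 1.5 with glmTreat. CPM is the count over library size times TMM factor, and log2 CPM used a prior count of 2. Lengths, positions and exon overlaps came from GENCODE M21 (GRCm38): 54471 symbols matched 1 gene, 115 matched several and 867 none. Likeness within groups was measured by chi-square for each degree of freedom (genes of 20 or more counts in sum). Libraries 2 and 3 differed by 3.41 in knockout and 4.61 in wild type, and pairs with library 1 by 29.7 to 48.4. No library looked like a repeat of another, but libraries 2 and 3 of each group were much closer to each other than to library 1.

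Deviations from the group means correlated at 0.44, 0.16 and 0.15 between libraries numbered 1, 2 and 3, all above 0.1, so the numbers were treated as pairing the libraries, and a fit with the number as a block was run beside the main one. Libraries 2 and 3 correlated as well across numbers (0.15 and 0.19), so the pairing rests on library 1.

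The 9 genes and the lists were chosen with earlier results of these data known. The genes named besides the 9 and the markers are Ppp2ca, Ppp2cb, Trp53, nearest protein-coding neighbours of the 9, 3 genes by likeness for each of Pdgfb, Nras and Pdgfra, and genes from the 3 smallest adjusted p values of each list. Alternatives were DESeq2 1.42.0, limma voom (limma 3.58.1), other scaling factors, other filters, the block and leaving out libraries. Some planned results, among them the shares of the RAS genes, are not reported here.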

Additional observations from a re-analysis of the deposited data

How the results depend on the processing

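Under the 14 alternatives, 8 of the 9 genes stayed on the same side of the threshold, and the 7 called ones kept their direction, while Nf1, never called, had either sign. The exception was Pdgfa, which passed under 5 of the 14, with log2 fold changes of -0.29 to -0.15 over all of them. Pdgfrb ranged from 0.59 to 0.73, Pdgfb from 0.35 to 0.53, Pdgfra from 0.22 to 0.33, Nras from 0.20 to 0.36, Pdgfc from -0.65 to -0.52, Pdgfd from -0.52 to -0.32, Hras from -0.83 to -0.63 and Nf1 from -0.089 to 0.058. The highest adjusted p was 0.0433 for Nras and 0.0427 for Pdgfd, so these 2 calls were the closest to the threshold. The test against a fold of 1.5 was the least stable. It called 1 gene higher and 1 lower with the replicate block, and 1 higher and 1 lower without both libraries numbered 1, and it called 1 lower with upper-quartile factors and 1 lower with library size only. Leaving out single libraries gave 0 to 1 higher and 0 to 1 lower. Without division by length, the difference in the Pdgfc share was -7.03 percentage points in place of -5.65. Versions of the fold test with DESeq2 and limma voom were chosen after seeing the data. All genes called numbered 9525, and 8314 to 11495 under the alternatives. The genes of the lists called higher numbered 44 to 60 and those called lower 27 to 46, with 60 and 46 under the replicate block. The block changed calls where given beside the results, and also those of Dync2h1, Rnh1 and Rab11fip4, neighbours of Pdgfd, Hras and Nf1, which passed under it. The lowest count of any of the 9 genes in a library was 832 (Pdgfd).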
